A study of Saccharomyces cerevisiae W303 with 3 samples.

Results

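Transcript levels were examined for 10 genes of Saccharomyces cerevisiae grouped as phosphate-responsive. Populations kept in continuous culture for 240 generations were compared with the same populations at 40 generations. The genes were chosen by name, all but PHO3 from the phosphate regulon. The list held the plasma membrane phosphate transporters PHO84 and PHO89, the transporter regulator SPL2, the phosphatases PHO5, PHO11, PHO12, PHO3 and PHO8, and the polyphosphate synthesis genes VTC1 and VTC3. They were 10 of the 6252 genes with a probe on the arrays. The strain was W303, a haploid laboratory strain stated to be of mating type a. Its mutant alleles of LEU2, TRP1, CAN1, URA3, ADE2 and HIS3 were shared by every sample. The 3 cultures, Replicate 1, Replicate 2 and Replicate 3, were kept in chemostats at 30 °C, in a minimal medium with glycerol as the main carbon source and a little glucose and yeast extract. The paper reports mutations in the evolved populations that differed between cultures. They were in HOG1 and MSY1 in its Replicate 1, HOG1 and URE2 in Replicate 2, and MSY1 in Replicate 3. Their part in the PHO gene results was not tested. RNA of each culture at 240 generations was hybridized against RNA of the same culture at 40 generations on 2 arrays with exchanged dyes, so that the 3 cultures gave 6 arrays. A sample was RNA of a whole population, in which less transcript in every cell and fewer cells with the transcript cannot be told apart.

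In yeast the PHO pathway adjusts the uptake and recovery of inorganic phosphate. When phosphate is plentiful, the cyclin and kinase pair Pho80 and Pho85 phosphorylates the activator Pho4 and keeps it out of the nucleus. When phosphate is scarce, the inhibitor Pho81 stops the kinase, and Pho4, with Pho2 at many of its targets, switches on the high-affinity transporter gene PHO84, the secreted acid phosphatase genes and genes for polyphosphate, the phosphate polymer stored in the vacuole. PHO3, a close relative of PHO5, belongs to a different control: it is repressed by thiamine rather than by phosphate.

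The arrays carried 15744 spots with 2 spots per gene, and a gene was tested where its mean signal over local background exceeded 2 background standard deviations at one of the time points on 4 or more arrays. This left 5504 of the 6252 genes. Median spot intensity was 518 to 915.5 in Cy5 and 577 to 1026.5 in Cy3, over backgrounds of 40 to 60 and 54 to 68. The number of arrays limits the precision of all values. Over all tested genes the log2 ratio, 240 over 40 generations, had a median of -0.01, with quartiles of -0.30 and 0.27, and that of the actin gene ACT1 was 0.02 ± 0.11 (SD, n = 3). Mating type markers mostly did not follow the stated genotype. Of 6 MATa-specific genes, STE6 was above background on 6 of 6 arrays at both time points and ASG7 on 5 arrays at 240 and 6 at 40 generations. STE2 was above background on only 2 arrays at 240 and 4 at 40 generations, and BAR1 on 0 and 3. The pheromone gene MFA1 was above it on 1 and 2 arrays, and MFA2 on 0 at both. BAR1, MFA1 and MFA2, 3 of the 6 genes, could not be tested. All 4 MATalpha-specific genes examined were above background on 6 arrays at both time points, and 3 of them were higher at 240 generations in limma's test (MF(ALPHA)2 by 2.46, SAG1 by 1.42 and STE3 by 0.78 on the log2 scale, with adjusted p of 0.00514, 0.0222 and 0.0269), with a list median of 1.10. Of the 3 MATa-specific genes tested, ASG7 was lower (-0.49, adjusted p = 0.0473), with a list median of -0.28. The part of these differences in the PHO gene results was not tested.

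The PHO genes did not move as one group. Of the 9 that could be tested, 4 were lower at 240 generations in limma's moderated test (adjusted p under 0.05 after Benjamini-Hochberg adjustment over all 5504 genes) and 5 did not pass, against 13.7% of all tested genes that were lower. The 4 were the sodium-dependent transporter gene PHO89 and the acid phosphatase genes PHO12, PHO3 and PHO11. None was higher, where 14.0% of all tested genes were, and none of the 9 was higher at an unadjusted p under 0.05. The median of the 9 log2 ratios was -0.34, and per culture it was -0.34, -0.31 and -0.42 in Replicates 1, 2 and 3. With 9 genes, these shares and medians are a description of the list.

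**Figure D1:**
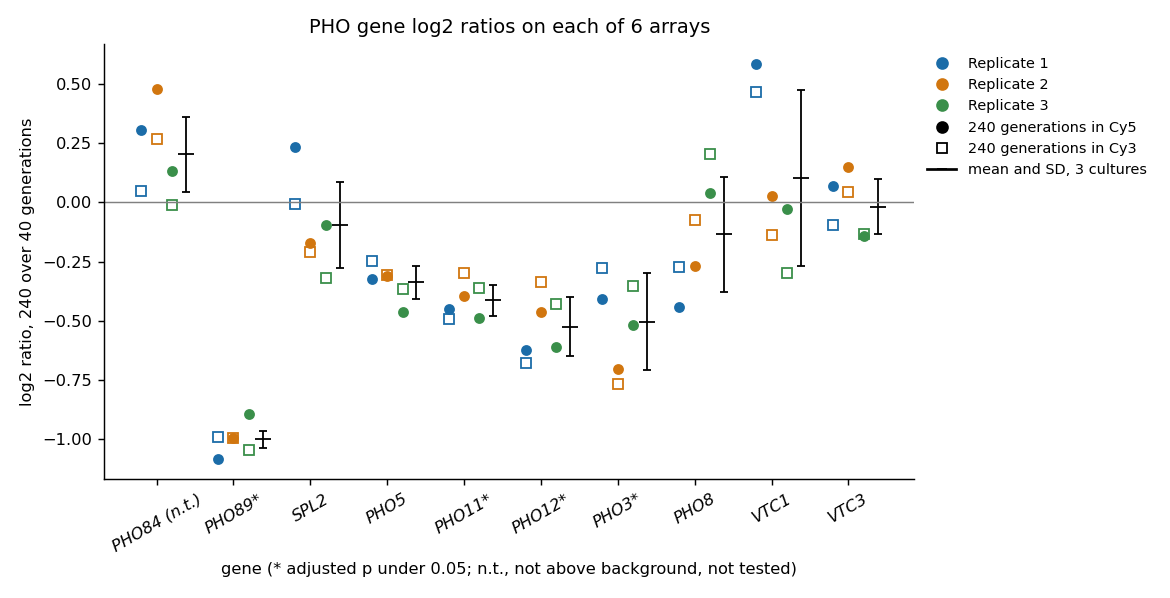
Log2 ratio (240 over 40 generations) of each PHO gene on every array, with colour for the culture, symbol for the dye of the 240-generation RNA, and the mean and SD of the 3 cultures to the right of each gene. PHO89, PHO5, PHO11, PHO12 and PHO3 lie below 0 on all 6 arrays, and VTC1 lies clearly above 0 in Replicate 1 only.

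PHO89, which encodes a high-affinity transporter that carries phosphate into the cell together with sodium and works best at alkaline pH, had the largest decrease of the PHO genes tested. Its normalised intensity was 154, 138 and 238 at 240 generations in Replicates 1, 2 and 3, against 317, 276 and 466 at 40 generations. The highest of the values at 240 generations lay below the lowest at 40 generations, although Replicate 3 was brighter than the other cultures at both time points. With the processing used here, the log2 ratios of the 3 cultures were -1.04, -0.99 and -0.97, so that the cultures differed far less in the change than in the level. Their mean of -1.001 ± 0.034 (SD, n = 3; 95% interval -1.26 to -0.74; limma adjusted p = 0.00471) corresponded to 0.4997 times the level of 40 generations. PHO89 ranked 184 of 5504 genes counted from the most strongly decreased. With the ratios and limma p computed here, it was the only PHO gene that met 4 criteria used in the study together. These were an absolute mean of 0.9 or more, p not above 0.05, SD not above 0.8, and SD divided by the squared mean not above 0.4. Of all tested genes, 3.32% met them as lower and 2.42% as higher. The probe was dim at 240 generations, with 2.29 to 5.43 background standard deviations over the 6 arrays, against 7.73 to 24.4 at 40 generations. The size of the ratio depended on the treatment of background. It was -1.56 after plain background subtraction (limma adjusted p = 0.0055) and -1.12 with no background correction (adjusted p = 0.00446). The deposited log2 ratios of the culture averages were -1.94, -1.34 and -1.27 in Replicates 1, 2 and 3, with a mean of -1.52 ± 0.37 (SD, n = 3). The close agreement of the cultures in the change was thus not seen in the deposited ratios.

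PHO84, which encodes the main high-affinity phosphate transporter, a proton symporter, was not above background at either time point on any of the 6 arrays and could not be tested. Its signal reached 0.955 to 1.89 background standard deviations at 240 generations and 0.185 to 0.875 at 40 generations. Background-subtracted intensity was 18.5 to 47 (median 34.5) at 240 generations, against 6 to 30 (median 15.25) at 40 generations, and 9 of the 12 spots were marked as not found. Before normalisation the value at 240 generations was the higher one on 6 of 6 arrays and after it on 5 of 6, but with both below the limit of detection no fold change is given. The deposited log2 ratios of this probe were 1.70, 2.91 and 0.08 in Replicates 1, 2 and 3, which rest on the same faint spots. Any change in this gene was therefore not measurable at this signal.

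SPL2, whose small protein reduces uptake by the low-affinity transporters when phosphate is scarce, was detected weakly on all arrays. Its normalised intensity was 168, 130 and 136 at 240 generations, against 155, 149 and 158 at 40 generations, and the time points overlapped. The mean log2 ratio was -0.09 ± 0.18 (SD, n = 3; 95% interval -0.39 to 0.21; limma adjusted p = 0.582), positive in Replicate 1 and negative in the other cultures.

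**Figure D2:**
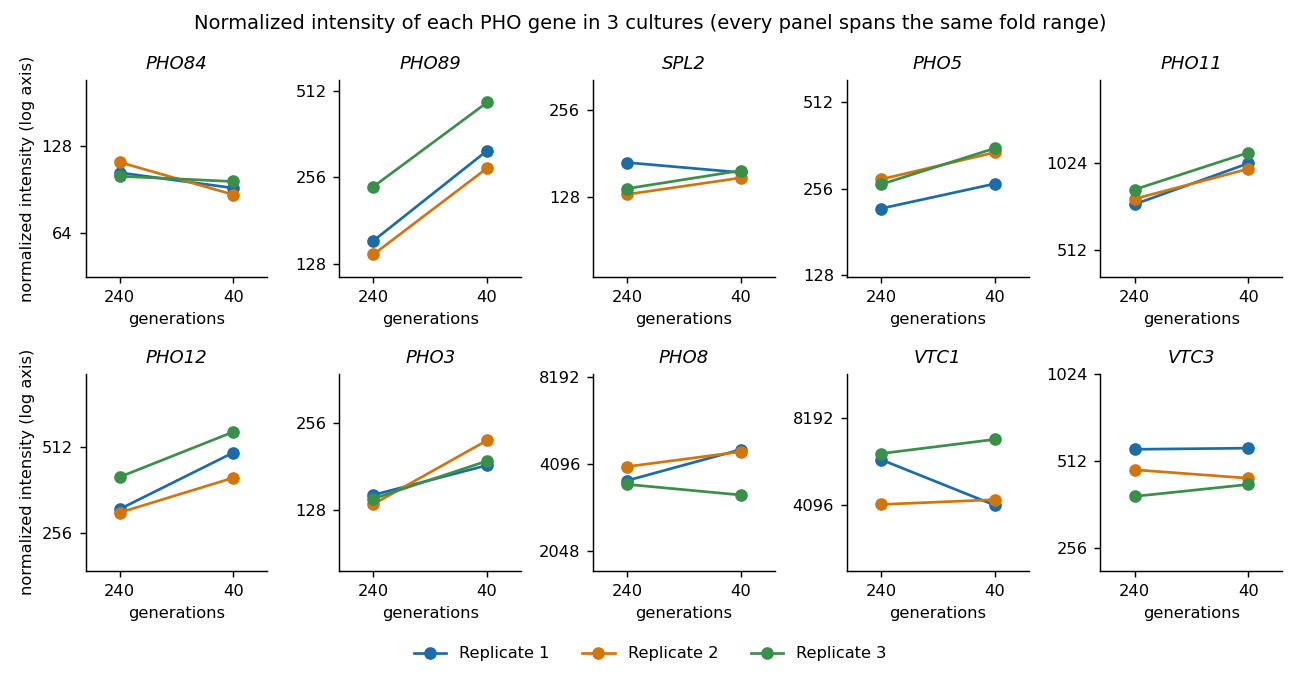
Normalised intensity (log axis, same fold range in every panel) of each PHO gene at 240 and at 40 generations, one line per culture; intensities of different probes are not comparable. The lines of PHO89 run nearly parallel, from 138 to 238 at 240 generations and 276 to 466 at 40 generations, whereas those of VTC1 cross.

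The secreted acid phosphatases release phosphate from organic esters outside the plasma membrane. PHO12, one of a pair of nearly identical subtelomeric genes, had normalised intensities of 311, 302 and 402 at 240 generations, against 488, 399 and 576 at 40 generations. Replicate 3 at 240 generations thus just reached Replicate 2 at 40 generations, while within each culture the gene was lower at 240 generations. The mean log2 ratio was -0.52 ± 0.13 (SD, n = 3; 95% interval -0.80 to -0.24; limma adjusted p = 0.0245). Its partner PHO11 had intensities of 736, 769 and 828 at 240 generations, against 1021, 977 and 1112 at 40 generations. The values of the time points did not overlap, and the cultures were close to each other at both. The mean log2 ratio of PHO11 was -0.41 ± 0.06 (SD, n = 3; 95% interval -0.68 to -0.15; limma adjusted p = 0.0385). Each of the pair has its own probe, but the sequences of the probes were not used here, and whether each probe also binds transcript of the other gene was not tested, so that the 2 decreases may not be separate measurements.

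PHO5, the major phosphate-repressible acid phosphatase gene and the classic reporter of the pathway, had intensities of 218, 276 and 265 at 240 generations, against 266, 342 and 353 at 40 generations. It was lower within every culture and below 0 on all 6 arrays, but the levels of the time points overlapped because Replicate 1 was dimmer at both. The mean log2 ratio of -0.34 ± 0.07 (SD, n = 3; 95% interval -0.60 to -0.07) had an unadjusted limma p of 0.0211 and missed the threshold after adjustment (adjusted p = 0.0651). With plain background subtraction it passed, at -0.49 (adjusted p = 0.046).

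PHO3, the constitutive acid phosphatase that lies next to PHO5 and frees thiamine from thiamine phosphates outside the cell, had intensities of 144, 134 and 140 at 240 generations, against 183, 223 and 189 at 40 generations. The time points did not overlap. The cultures were close to each other at 240 generations, and Replicate 2 was the brightest at 40 generations and had the largest change. The log2 ratios were -0.34, -0.73 and -0.44, with a mean of -0.50 ± 0.21 (SD, n = 3; 95% interval -0.82 to -0.19; limma adjusted p = 0.0357). This probe was faint as well, at 2.38 to 4.91 background standard deviations at 240 generations and 2.47 to 10.1 at 40 generations. Whether it also binds transcript of the related gene PHO5 was not tested, so that the decreases of PHO3 and PHO5 may not be separate measurements. The size of its decrease depended on the treatment of background: the mean log2 ratio was -0.95 after plain subtraction (limma adjusted p = 0.0125) and -1.15 ± 0.19 (SD, n = 3) in the deposited log2 ratios. With either of these, PHO3 also met the 4 criteria given for PHO89. The share of all tested genes that met them with these ratios was not computed.

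PHO8, the alkaline phosphatase of the vacuole, did not pass the test and differed in sign between cultures. Its intensities were 3580, 4002 and 3473 at 240 generations, against 4587, 4507 and 3191 at 40 generations. The log2 ratios were -0.36, -0.17 and 0.12, and the mean of -0.14 ± 0.24 (SD, n = 3) had a 95% interval of -0.47 to 0.19 (limma adjusted p = 0.467). A change of the size measured for PHO89 lies outside this interval.

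Of the 10 genes, 5 lay below 0 on all 6 arrays (PHO89, PHO5, PHO11, PHO12 and PHO3, all tested), a pattern that 27.7% of all tested genes showed. Of the 9 tested genes, 3 had levels at 240 generations that all lay below those of 40 generations (PHO89, PHO11 and PHO3), as did 16.9% of all tested genes. No member had non-overlapping levels in the higher direction, as 15.4% of all tested genes had. The 5 genes that were below 0 on every array were the inducible transporter gene PHO89 and the 4 acid phosphatase genes, whereas the 4 other tested genes (SPL2, PHO8, VTC1 and VTC3) had 95% intervals that included 0.

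**Figure D3:**
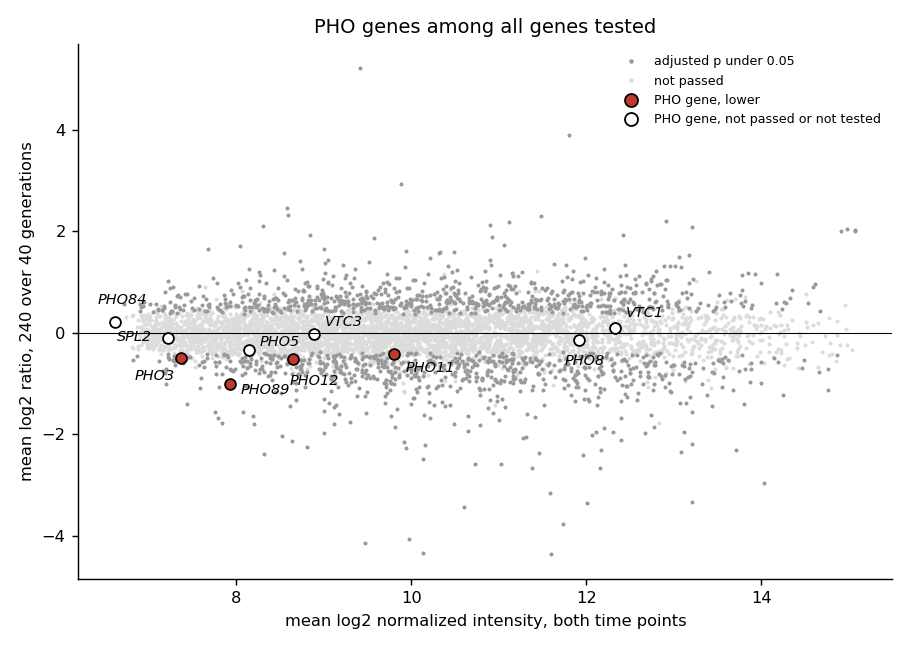
Mean log2 ratio (240 over 40 generations) of all tested genes against their mean log2 normalised intensity, with the PHO genes marked and PHO84, which was not tested, added. PHO89 at -1.001 is the PHO gene farthest from 0, and many other genes lie beyond it in both directions.

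VTC1 and VTC3 encode subunits of the vacuolar transporter chaperone complex, which makes polyphosphate and moves it into the vacuole. VTC1 had intensities of 5892, 4116 and 6180 at 240 generations, against 4094, 4276 and 6921 at 40 generations. It was higher in Replicate 1 and slightly lower in the other cultures, with log2 ratios of 0.53, -0.06 and -0.16. The mean was 0.10 ± 0.37 (SD, n = 3; 95% interval -0.30 to 0.51; limma adjusted p = 0.662), the largest spread among the PHO genes tested, and without Replicate 1 it was -0.11. VTC3 had intensities of 563, 478 and 387 at 240 generations, against 569, 447 and 425 at 40 generations. The log2 ratios of VTC3 lay close to 0 in every culture, with a mean of -0.02 ± 0.12 (SD, n = 3; 95% interval -0.29 to 0.26; limma adjusted p = 0.92).

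How far a culture's ratio for a gene departed from that of the other cultures varied with the gene's coding length. Across 5347 genes, the difference between a culture and the mean of the others had a Spearman rho with length of -0.37, 0.09 and 0.43 in Replicates 1, 2 and 3, a description across genes that share one array set. VTC1 is short and VTC3 is long. With the trend of each culture removed, a step chosen after the data were seen, the log2 ratios of VTC1 were 0.40, 0.00 and -0.01, and those of PHO8 were -0.21, -0.18 and 0.09. Those of PHO89 were -0.95, -1.02 and -1.08, and the same 4 genes (PHO89, PHO11, PHO12 and PHO3) were lower.

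Genes that set the activity of the pathway were examined next. Of 10 regulator and signalling genes on the arrays, 9 were tested, 1 was higher and none was lower (none at an unadjusted limma p under 0.05), with a median log2 ratio of 0.07, beside 27.7% of all tested genes that passed in either direction. The gene that passed was PHO85, the cyclin-dependent kinase, with log2 ratios of 0.68, 0.41 and 0.45 and a mean of 0.51 ± 0.14 (SD, n = 3; limma adjusted p = 0.0273), or 1.43 times the level of 40 generations. PHO4, the activator, had a mean of 0.39 ± 0.36 and did not pass (adjusted p = 0.12), with values of 0.02, 0.41 and 0.74 in Replicates 1, 2 and 3. The activity of Pho4 is set by its phosphorylation and location, which these arrays do not measure.

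Other phosphate carriers and genes for their trafficking had 3 lower and no higher genes among 8 tested, with a median of -0.36 (none higher at an unadjusted limma p under 0.05). Of all tested genes, 13.7% were lower and 14.0% higher. The low-affinity transporter gene PHO90 had log2 ratios of -0.58, -0.87 and -0.93, with a mean of -0.79 ± 0.19 (SD, n = 3; limma adjusted p = 0.011). Its relative PHO87, which is also a phosphate sensor, had a mean of -0.50 ± 0.21 (adjusted p = 0.0371), and SYG1, which encodes a relative of phosphate exporters, one of -0.56 ± 0.34 (adjusted p = 0.0476). All 3 are long genes, at 2646 (PHO90), 2772 (PHO87) and 2709 (SYG1) bases. With the length trend removed, PHO87 did not pass (-0.36, limma adjusted p = 0.0503). PHO90 (-0.67, adjusted p = 0.0232) and SYG1 (-0.44, adjusted p = 0.0498) still did. A low-affinity and a high-affinity plasma membrane transporter gene, PHO90 and PHO89, were thus both lower at 240 generations. The PHO genes and this list share all samples, and the difference between their medians was not tested.

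Of 6 other polyphosphate genes, all tested, 2 were higher and none was lower (none at an unadjusted limma p under 0.05), with a median of 0.27. The shares over all tested genes were 14.0% higher and 13.7% lower. Both that passed encode polyphosphatases: PPX1 averaged 0.56 ± 0.15 on the log2 scale (SD, n = 3; limma adjusted p = 0.0226), and PPN2 0.42 ± 0.11 (adjusted p = 0.041). The synthesis genes VTC2, at 0.37 (adjusted p = 0.0626), and VTC4, which encodes the catalytic subunit, at -0.17 (adjusted p = 0.354), did not pass, as VTC1 and VTC3 did not.

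The 6 other phosphate-responsive or phosphatase genes moved apart from one another, with 1 higher, 1 lower and a median of -0.04. PHM6, a short phosphate-responsive gene of unknown function, had log2 ratios of 0.61, 1.04 and 1.28, with a mean of 0.98 ± 0.34 (SD, n = 3; limma adjusted p = 0.0117). PHM7, which encodes a membrane protein of poorly known function, was lower, with log2 ratios of -2.65, -1.66 and -1.71 and a mean of -2.01 ± 0.56 (adjusted p = 0.00493), or 0.249 times the level of 40 generations. DIA3, a relative of the acid phosphatases, had values of -1.36, -0.28 and -0.47 and a mean of -0.70 ± 0.57 that did not pass (adjusted p = 0.0644). Over the 4 related lists together, 29 of 31 genes were tested, and 4 were higher, 4 were lower and 21 did not pass, with a median of -0.01. Of all tested genes, 14.0% were higher and 13.7% lower, close to the shares of these 29 genes.

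**Figure D4:**
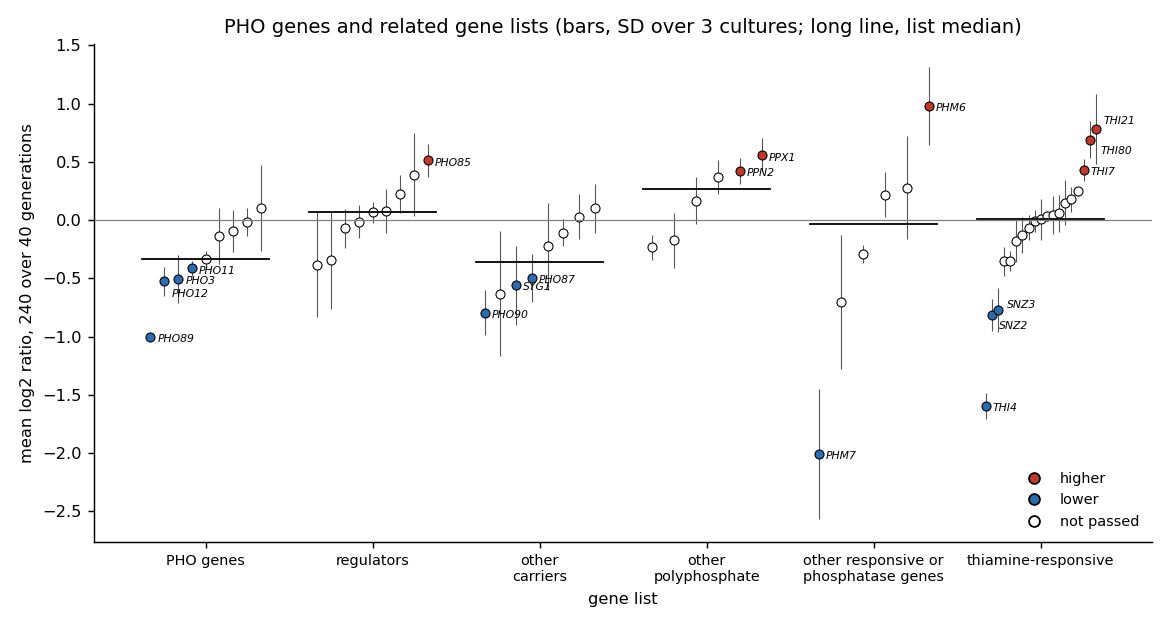
Mean log2 ratio (240 over 40 generations) of every tested PHO gene and of the genes of 5 related lists, with SD over 3 cultures, a long line at each list's median, and names for the genes that passed. The medians are -0.34 for the PHO genes, 0.07 for regulators, -0.36 for other carriers, 0.27 for other polyphosphate genes, -0.04 for other responsive or phosphatase genes and 0.01 for thiamine-responsive genes.

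Since PHO3 answers to thiamine, genes of thiamine synthesis and uptake were examined beside it. Of 19 tested, 3 were higher and 3 were lower, beside 14.0% and 13.7% of all tested genes, with a median of 0.01. THI4, which makes the thiazole part of thiamine, fell to 0.331 times its level at 40 generations, with a mean log2 ratio of -1.59 ± 0.11 (SD, n = 3; limma adjusted p = 0.00159). SNZ2 and SNZ3, near-identical genes linked to vitamin B6 and thiamine synthesis whose probes may share signal, had means of -0.81 ± 0.13 (adjusted p = 0.00893) and -0.77 ± 0.19 (adjusted p = 0.0117). THI21, of thiamine pyrimidine phosphorylation, was higher at 0.78 ± 0.30 (adjusted p = 0.0172), as were THI80, thiamine pyrophosphokinase, at 0.69 ± 0.16 (adjusted p = 0.0142) and THI7, the thiamine transporter, at 0.43 ± 0.10 (adjusted p = 0.037). PHO3 and THI4 were thus both lower, while the list as a whole had as many higher as lower genes. Of the 14 genes of the related lists that passed and are named here, 12 (all but PHM7 and THI4) lost their call without Replicate 2, with limma adjusted p of 0.0604 to 0.26. Without Replicate 3, 5 lost it (PHO85, PHO87, PPX1, PPN2 and THI7), with 0.0888 to 0.147. Over all 5504 genes, 122 were higher and 165 lower without Replicate 2, and 292 and 376 without Replicate 3. With all cultures 769 were higher and 753 lower.

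The order of the genes was read from the RefSeq annotation of assembly R64 for genes with both a probe and an entry in it, which leaves out the 499 genes on the arrays without an entry. PHO5 and PHO3 are neighbours on chromosome II. Of 17 genes next to a PHO gene in this reduced order, 16 were tested, 3 were higher and none was lower, beside 14.0% and 13.7% of all tested genes. At an unadjusted limma p under 0.05, 5 were higher and 3 lower. On either side of PHO89, PCA1 and MAL33 had mean log2 ratios of -0.34 (adjusted p = 0.215) and -0.36 (adjusted p = 0.0685). PHO12 had IMD2 beside it at -0.32 (adjusted p = 0.115), and YHR214W-A, without an entry and numbered just before PHO12, was higher at 0.45 ± 0.07 (SD, n = 3; limma adjusted p = 0.0323). Near PHO11, YAR068W had 0.29 (adjusted p = 0.0982), and IMD1, which has no entry and is numbered just after PHO11 in the locus names, had 0.46 ± 0.16 and was higher (SD, n = 3; limma adjusted p = 0.0376). IMD1, YHR214W-A and the 3 higher genes of the count were named after their values were seen. The 3 were YML122C at 1.26 ± 0.31 and TUB3 at 0.55 ± 0.12, on either side of PHO84, and ALD5, next to VTC1, at 2.07 ± 0.12 (SD, n = 3; limma adjusted p = 0.00586, 0.021 and 6.62e-04).

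Among the PHO genes, PHO89 passed the test under the most settings, although the size of its decrease varied. Over 19 other settings, of which the deposited log2 ratios and the series value table held the same values, its mean log2 ratio was between -1.56 and -0.98, and it passed in 18 of them. PHO12 passed in 16 of the 19, PHO3 in 14, PHO11 in 12 and PHO5 in 3, all with log2 ratios below 0 in 19 of 19. The number of PHO genes that were lower fell to 1, PHO89, when Replicate 2 or Replicate 3 was left out. Of all 5504 genes, 165 were lower without Replicate 2 and 376 without Replicate 3, against 753 with all cultures. PHO12 then had an adjusted p of 0.123 without Replicate 2 and 0.105 without Replicate 3, PHO11 one of 0.196 and 0.18, and PHO3 one of 0.25 and 0.108. PHO8, SPL2, VTC1 and VTC3 passed in none of the 19 settings.

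**Figure D5:**
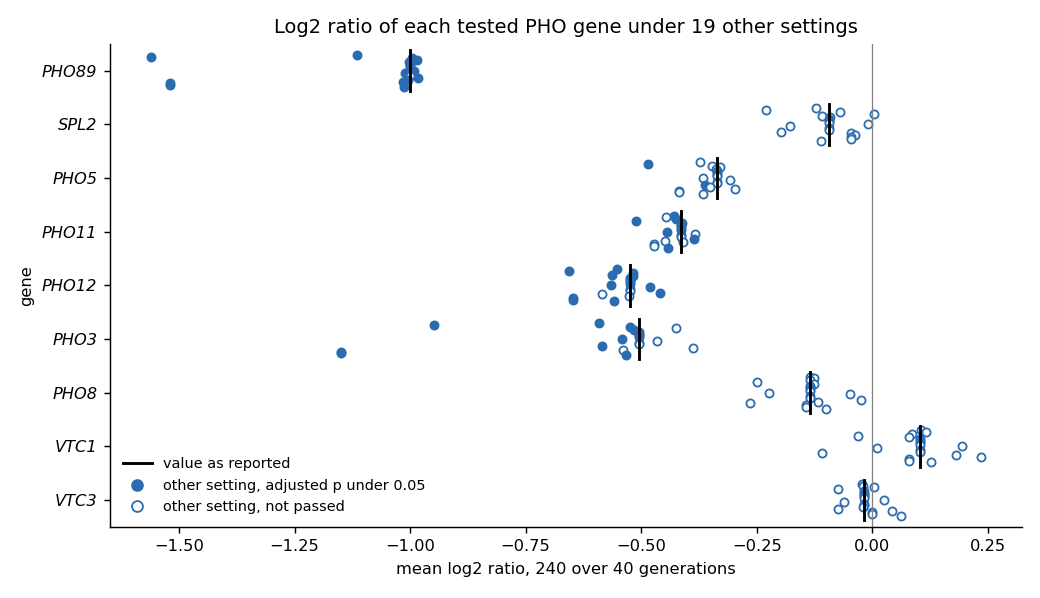
Mean log2 ratio (240 over 40 generations) of each tested PHO gene under 19 other settings, filled where limma's adjusted p was under 0.05, with a vertical bar at the value as reported. PHO89 passes in 18 settings and spans -1.56 to -0.98, and the values of VTC1 and VTC3 fall on both sides of 0.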

How the data were processed

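RNA of 3 cultures at 240 and at 40 generations was measured on 6 two-colour arrays. The authors deposited scanner files with spot and local background intensity per dye, the percent of saturated pixels, and flags, without normalisation. They also deposited 2 tables of log2 ratios per culture, normalised and averaged over both arrays in the Acuity software by an algorithm not given in the sources used here, which were used as alternatives with exact 0 taken as missing. Dye orientation was taken from the names of the deposited scans. With 240 over 40 generations computed in this way, the ratios correlated with the deposited log2 ratios at r = 0.90, 0.92 and 0.92 in Replicates 1, 2 and 3. The medians of the deposited columns were 0, 0 and 0.007.

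Median intensities were background-corrected (normexp, offset 50) and loess-normalised within arrays in limma 3.58.1 (R 4.3.3), with control spots at weight 0. Spots of a probe were averaged first, then both dye-swapped arrays of each culture, and the log2 ratio of the 3 cultures was tested against 0 with limma, with Benjamini-Hochberg adjustment over 5504 genes. Each array pairs the time points of one culture. The fit was also run on simulated ratios with independent normal noise, without the length trend seen here, and no result rests on that run. The 4 probes whose rows were empty were left out. Gene names came from the files, and 5753 of 6252 genes had a RefSeq entry.

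All 10 PHO genes are named; of each related list, up to 4 genes per direction that passed are named, and a few that did not pass were added after their values were seen. The PHO genes and lists were chosen with earlier results of these data known. Alternatives covered background, normalisation, filters, dye, pairing, prior, deposited ratios and leaving out each culture.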

Additional observations from a re-analysis of the deposited data

How the results depend on the processing

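Over 19 other settings, 12 gave 4 or more PHO genes lower, and none was higher in any (none at an unadjusted limma p under 0.05). Plain background subtraction, the deposited log2 ratios and the series value table each gave 2 PHO genes, PHO89 and PHO3, that met the study's 4 criteria, in place of 1. The share of all tested genes that met the criteria under these settings was not computed, so the rise cannot be read as particular to PHO3. With arrays that had 240 generations in Cy3 alone, 2 PHO genes were lower, and 708 of all 5504 genes were, against 753 with both dyes. With no replicate block, that is with the time points not paired by culture, 188 genes were higher, 243 were lower and 0 PHO genes were lower (4 at an unadjusted limma p under 0.05), with adjusted p of 0.0587 for PHO89, 0.0974 for PHO3, 0.145 for PHO11 and 0.15 for PHO12. Leaving out each culture in turn gave 122 to 1225 genes higher, 165 to 1252 lower and 1 to 5 PHO genes lower. Without Replicate 2 or Replicate 3 the PHO gene that remained was PHO89, and without Replicate 1 PHO5 was added (adjusted p = 0.0268). Median centring in place of loess gave 649 higher and 992 lower genes, against 769 and 753. The log2 ratio of SPL2 changed sign to 0.0032 with median centring. That of VTC1 changed sign to -0.032 with median centring and, leaving out each culture, ranged over -0.11 (without Replicate 1) to 0.23. That of VTC3 changed sign to 0.0039 with the mean of the pixels, to 0.025 with 240 generations in Cy5 alone, and to 0.063 with the length trend removed, an alternative added after the data were seen, and leaving out each culture gave -0.075 to 0.042 (without Replicate 3). Of the 14 named genes of the related lists, 9 lost their call without pairing, PHO85, PHO87, SYG1 and THI7 with the deposited log2 ratios (adjusted p 0.0535 to 0.0719), PHO87 and SYG1 with plain subtraction (0.0544 and 0.0591) and PHO85 with median centring (0.0923). With 240 generations in Cy5 alone, PHO87 and THI7 lost it (0.055 and 0.0741), and in Cy3 alone SYG1 and PPN2 (0.0626 and 0.0506). SYG1 lost it with no filter on dim probes (0.0635), and PHO87 with the length trend removed (0.0503). The cause of these changes was not tested. Signal over background limits PHO84, which could not be tested, and the size of the ratios of PHO89 and PHO3. The log2 ratios of PHM6 and THI80 also depended on background, at 1.48 and 1.18 after plain subtraction, against 0.98 and 0.69.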
